A study of Mus musculus with 15 samples.

Results

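Dlk1 and 9 further genes, grouped as neuronal imprinted genes, were followed in nuclei of the mouse ventral tegmental area. The genes were Dlk1, Meg3, Rian, Mirg, Peg3, Ndn, Snrpn, Grb10, Cdkn1c and Nap1l5, which are 10 of the 35976 genes in the count table, and they were taken by gene symbol. They were chosen on their expression in these same samples, with the fold change between dopaminergic and non-dopaminergic nuclei known. Their values in that contrast are therefore given as a description with no test.

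All mice were male heterozygous DAT-Cre animals (B6.SJL-Slc6a3tm1.1(cre)Bkmm/J), 8 to 12 weeks old, in which Cre recombinase is driven from the dopamine transporter gene Slc6a3. Every animal, controls included, received the virus AAV5-DIO-KASH-HA in the ventral tegmental area, a vector that needs Cre to put an HA-tagged protein on the nuclear envelope, and 14 days were left for its expression. Each sample pooled tissue of 2 mice, and sorting split the nuclei into a dopaminergic fraction that carried the HA tag and a non-dopaminergic fraction that lacked it. The gate without HA takes every nucleus that the virus did not label, whatever its type.

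The 15 libraries formed 4 groups. There were 4 libraries of dopaminergic nuclei from mice given 7 days of operant food training and no cocaine, 3 from mice at cocaine maintenance and 4 from mice in abstinence. A further 4 libraries held non-dopaminergic nuclei of food-trained mice. Maintenance mice had worked for intravenous cocaine daily, each session lasting 1 hour, with infusions of 0.3 mg/kg over 5 days followed by infusions of 1.0 mg/kg over 10 days. Abstinence mice, labelled craving, had gone through the same schedule and a further 21 days in the home cage without cocaine. The mice of the 3 stages were different animals, and no cocaine-naive group was kept for the same length of time.

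Imprinted genes are transcribed mainly from the copy inherited from one parent, and many sit in clusters under a shared control region. In the Dlk1-Dio3 cluster the paternal chromosome gives the protein-coding genes Dlk1 and Rtl1, and the maternal chromosome gives the noncoding RNAs Meg3, Rian and Mirg, which host many microRNAs and small nucleolar RNAs. Dlk1 encodes a transmembrane protein with epidermal growth factor repeats that is related to the Notch ligands and is known as a marker of many midbrain dopamine neurons. The counts carry no allele information, so nothing here measures imprinting itself.

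Dlk1 lies on the plus strand at chr12:109452823-109463336 (GRCm38). Meg3 starts 77.7 kb further along, at chr12:109541001-109571726, Rian lies at chr12:109603940-109661716 and Mirg at chr12:109729764-109749460, all on the plus strand and all named as genes in GENCODE M21. The 250 bases before the start of Dlk1 (chr12:109452573-109452822, plus strand) and of Meg3 (chr12:109540746-109540995, plus strand), from the RefSeq promoter table of GRCm38.p6, are shown because these neighbours had such different levels and ratios between the sorted fractions. Capitals mark CG dinucleotides, the sites where imprinted regions are methylated.
Dlk1: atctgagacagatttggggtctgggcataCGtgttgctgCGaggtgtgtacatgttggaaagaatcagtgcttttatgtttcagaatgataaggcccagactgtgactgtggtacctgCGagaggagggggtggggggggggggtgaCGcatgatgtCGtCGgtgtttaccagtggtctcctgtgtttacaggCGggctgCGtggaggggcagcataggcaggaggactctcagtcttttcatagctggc
Meg3: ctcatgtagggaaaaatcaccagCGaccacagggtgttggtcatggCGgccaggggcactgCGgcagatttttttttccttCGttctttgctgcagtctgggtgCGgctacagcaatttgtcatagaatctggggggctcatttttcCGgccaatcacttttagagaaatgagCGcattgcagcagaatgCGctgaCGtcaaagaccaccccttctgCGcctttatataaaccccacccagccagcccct
These stretches hold 8 CG dinucleotides for Dlk1 and 10 for Meg3. Motifs were searched on both strands in windows that run 50 bases past the start. TATAAA, the TATA box, was found upstream of Meg3 at positions -29 and -25 from the start, as overlapping matches on opposite strands, and not in the Dlk1 window, against 13.6% of 32851 promoter windows of the same length that hold it. Neither window held AAAGGTCA, the motif of Nr4a2 and its relatives (1.51% of windows), or TAATCC, the motif of Pitx3 and its relatives (7.06% of windows).

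Total counts per library ran from 25813697 to 59046618. The summed level of 10 dopamine neuron markers was 6522 to 12449 CPM (counts relative to library size, scaled with TMM factors) in food-trained dopaminergic libraries and 361.6 to 539.2 CPM in the non-dopaminergic ones, with no marker at 0 throughout. The labels call the fraction without HA neurons, but 8 oligodendrocyte markers summed to 8883 to 22069 CPM there, against 1678 to 2750 CPM in food-trained dopaminergic nuclei. Astrocyte markers (7 genes) summed to 1587 to 3331 against 746.5 to 991.7 CPM, microglia markers (6 genes) to 837.4 to 1231 against 244.4 to 399.0 CPM, and GABA neuron markers (3 genes) to 191.8 to 262.1 against 160.7 to 220.2 CPM. In such bulk libraries fewer cells of a type and less RNA per cell cannot be told apart, and the part of glial nuclei in the differences between fractions was not tested.

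Dlk1 was the member that stood highest in dopaminergic over non-dopaminergic nuclei. Its level in food-trained dopaminergic nuclei was 906.7, 1047, 1468 and 1609 CPM in replicates 1 to 4, and in non-dopaminergic nuclei it was 166.9, 150.5, 140.6 and 139.4 CPM. The groups were far apart, with the lowest dopaminergic library at several times the level of the highest non-dopaminergic one. The means were 1258 ± 334 (SD, n = 4) and 149 ± 12.7 CPM (SD, n = 4), a log2 fold change of 3.09 (SE 0.24) in the edgeR fit. By this fold change Dlk1 stood at rank 93 of 19786 genes compared. Between 18 alternative settings and left-out libraries the value ran from 2.94 to 3.21.

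Dlk1 was also one of the most abundant transcripts of these nuclei. Ranked by raw counts among all genes of a library, it stood between places 27 and 96 in food-trained dopaminergic nuclei and between places 930 and 1331 in non-dopaminergic nuclei. Its level in the non-dopaminergic fraction was 11.9% of that in the dopaminergic one. The same share was 3.10% for Slc6a3, the dopamine transporter, 4.25% for Th, the rate-limiting enzyme of dopamine synthesis, and 14.8% for Ddc, which makes dopamine from L-DOPA. Within libraries, counts of Dlk1 were 44.1 ± 13.9% of those of Slc6a3 in food-trained dopaminergic nuclei and 165 ± 28.3% in non-dopaminergic nuclei (SD, n = 4 each).

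**Figure D1:**
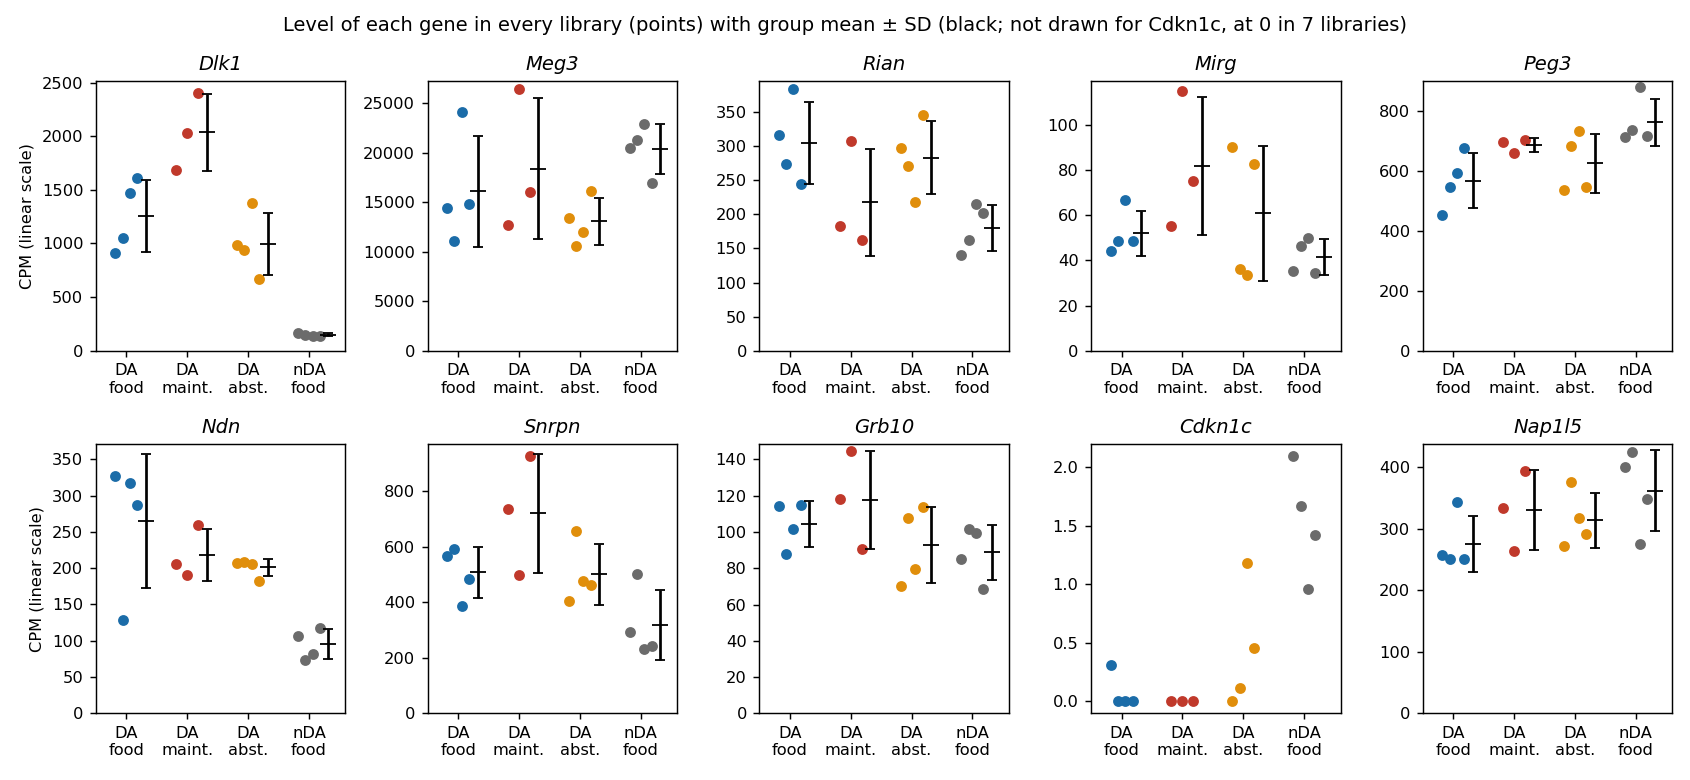
Level of each of the 10 genes in every library, in CPM on a linear axis that differs between panels (points), with the group mean and SD in black except for Cdkn1c, for dopaminergic nuclei (DA) after food training, maintenance and abstinence and for non-dopaminergic nuclei (nDA) after food training. The 4 non-dopaminergic libraries sit at 139.4 to 166.9 CPM for Dlk1, below all 11 dopaminergic libraries, whereas Meg3, Mirg, Snrpn, Grb10 and Nap1l5 overlap between the fractions of food-trained mice.

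Across the 15 libraries the genes whose log2 CPM followed Dlk1 most closely were Nrxn3 (Pearson r 0.98, Spearman rho 0.96), Scg2 (0.97, 0.91), Chrnb3 (0.97, 0.92), Slc39a4 (0.97, 0.88) and Oprk1 (0.97, 0.88), out of 8401 genes with a mean of at least 20 CPM. Nrxn3 encodes a presynaptic adhesion protein, Chrnb3 a nicotinic receptor subunit and Oprk1 the kappa opioid receptor. Of the compared genes 357 had an r over 0.8 with Dlk1, among them all 6 dopamine markers examined. These included Slc6a3 (r 0.95, rho 0.70), Th (0.96, 0.77), Chrna6 (0.97, 0.84) and Ret (0.94, 0.57). Over 15 libraries r takes in the gap between the fractions, which was known when Dlk1 was chosen. The number of genes over 0.8 was 50 when only the 11 dopaminergic libraries were used. Within the 11 dopaminergic libraries the closest of 8122 genes were Nrxn3 (r 0.94, rho 0.94), Zfhx3 (0.92, 0.87), Kmt2a (0.91, 0.87), Ankrd11 (0.91, 0.91) and Slc1a2 (0.91, 0.90). These points share stages and library properties, and the values are a description.

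Meg3, the noncoding RNA at the start of the maternal cluster, was at rank 2 or 3 among all genes by raw counts in every library. Its level was 14383, 11099, 24127 and 14847 CPM in food-trained dopaminergic replicates 1 to 4 and 20528, 21337, 22897 and 16956 CPM in non-dopaminergic ones. The groups overlapped, since dopaminergic replicate 3 was above all non-dopaminergic libraries while the other 3 were below all of them. The log2 fold change was -0.33 (SE 0.38), so Meg3 did not share the difference of its neighbour Dlk1. Counts of Dlk1 were 8.17 ± 2.35% of those of Meg3 in food-trained dopaminergic nuclei and 0.739 ± 0.099% in non-dopaminergic nuclei (SD, n = 4 each). The genes most like Meg3 over the 15 libraries were Rimklb (r 0.91, rho 0.93), Celf2 (0.89, 0.90), Grip1 (0.89, 0.93), Cep350 (0.87, 0.86) and Pcf11 (0.87, 0.84), none of them among those most like Dlk1. Over the 11 dopaminergic libraries they were Fam184a (r 0.95, rho 0.92), Celf2 (0.94, 0.83), Rimklb (0.94, 0.85), Cck (0.92, 0.88) and Luc7l3 (0.90, 0.85), after 1 predicted gene was passed over.

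Rian, the host of a large array of small nucleolar RNAs, stood higher in dopaminergic nuclei. It was at 316.0, 274.4, 383.5 and 244.6 CPM in the 4 food-trained dopaminergic libraries and at 141.0, 162.4, 215.5 and 201.7 CPM in the non-dopaminergic ones. All dopaminergic libraries were above all non-dopaminergic ones, and the log2 fold change was 0.77 (SE 0.21). Mirg, the last of the noncoding hosts, was at 44.2, 48.4, 66.6 and 48.6 CPM against 35.2, 46.5, 50.1 and 34.3 CPM. Its groups overlapped and its log2 fold change was 0.33 (SE 0.23).

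The noncoding RNAs of the cluster thus kept different proportions in the fractions. Counts of Rian were 1.59 to 2.47% of those of Meg3 in food-trained dopaminergic libraries, mean 1.98 ± 0.43% (SD, n = 4), and 0.687 to 1.19% in non-dopaminergic libraries, mean 0.895 ± 0.224% (SD, n = 4). Counts of Mirg were 0.276 to 0.436% of those of Meg3 in dopaminergic and 0.171 to 0.219% in non-dopaminergic libraries. Neither pair of ranges overlapped. Such a ratio within a library does not depend on how libraries are scaled, and it shows unequal proportions, not which gene differs.

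**Figure D2:**
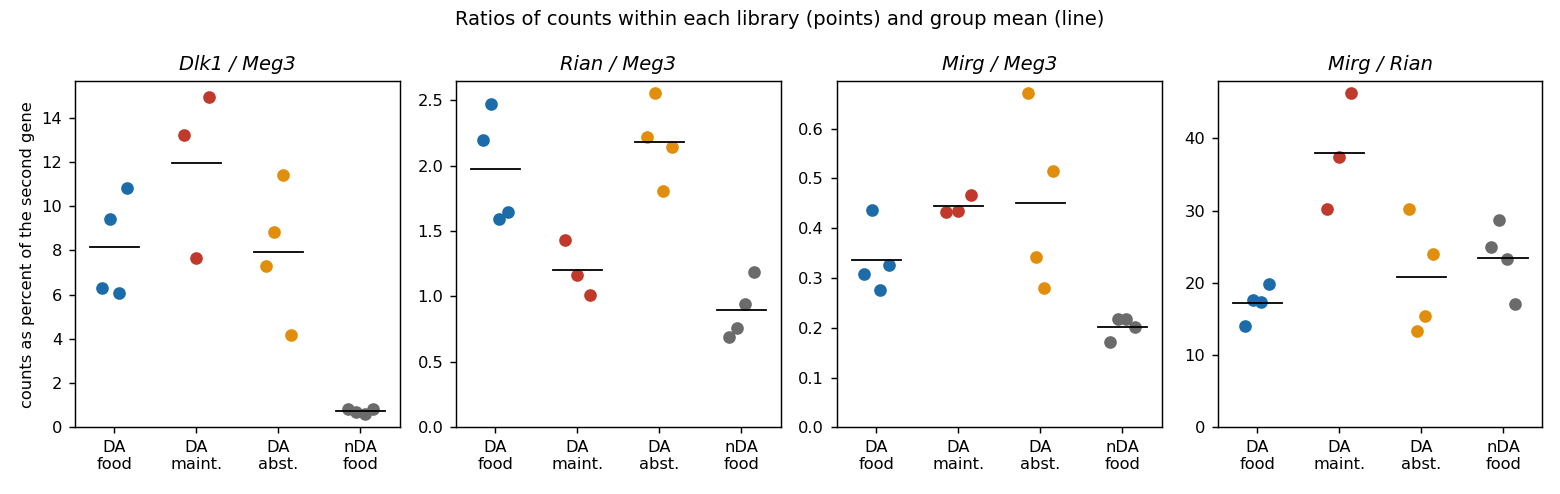
Counts of one gene as a percent of those of another gene in the same library (points) with the group mean (line), for Dlk1, Rian and Mirg against Meg3 and for Mirg against Rian. Dlk1 over Meg3 lies at 0.614 to 0.822% in non-dopaminergic nuclei and at 4.17 to 14.9% in the 3 dopaminergic groups, and Rian over Meg3 is lower in the 3 maintenance libraries than in the other dopaminergic ones.

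Rtl1, a retrotransposon-derived gene on the opposite strand between Meg3 and Rian that is expressed from the paternal copy like Dlk1, did not share the size of its difference. It was at 17.4, 53.5, 43.1 and 26.6 CPM in food-trained dopaminergic and 30.1, 21.4, 30.1 and 22.7 CPM in non-dopaminergic nuclei, and did not pass (log2 fold change 0.44, SE 0.37, edgeR adjusted p 0.553). Use of strand was not given in the sources used here, so reads of an antisense RNA may be part of it. Counts of Rtl1 were 2.90 ± 1.57% of those of Dlk1 in food-trained dopaminergic and 17.5 ± 3.04% in non-dopaminergic nuclei (SD, n = 4 each).

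The table also lists 57 microRNA hairpins between the start of Meg3 and the end of Mirg, which were looked at after the other values were seen and carry no test. Since the libraries were not made from small RNA, reads on such a row may come from a long RNA across the hairpin or from its precursor. Their source was not tested, and they say nothing of the mature microRNA. In every library 8 rows were at 0 and 3 rows at exactly 1 count, a value that 24 genes of the table share. Rows were kept at a mean of at least 20 counts over all 15 libraries. Most of these libraries are dopaminergic, so the cut favours rows high in dopaminergic nuclei, and nothing is read from how many were higher. Of the 11 rows kept, 9 had a higher mean in food-trained dopaminergic than in non-dopaminergic nuclei. Of these 9, 4 were higher without overlap, as were 6.41% of all genes compared. These 4 were Mir381, Mir487b and Mir539, which lie between Rian and Mirg, and Mir377 in Mirg. Their RefSeq mature sequences, with the seed (bases 2 to 8) in capitals, are shown to name the products of the rows that differed.
mmu-miR-381-5p: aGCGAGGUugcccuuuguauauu
mmu-miR-381-3p: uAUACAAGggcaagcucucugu
mmu-miR-487b-5p: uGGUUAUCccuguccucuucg
mmu-miR-539-5p: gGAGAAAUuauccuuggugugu
mmu-miR-377-5p: aGAGGUUGcccuuggugaauuc
mmu-miR-377-3p: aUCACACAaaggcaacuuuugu
No seed is shared among these 6 sequences. The row of Mir377 had 668, 530, 628 and 373 counts in food-trained dopaminergic libraries and 219, 180, 236 and 198 counts in non-dopaminergic ones, a 3.18-fold higher mean CPM. The mean CPM was 3.77-fold higher for Mir539, 2.99-fold for Mir487b and 2.05-fold for Mir381. Mirg, the annotated host of Mir377, had means of 51.9 and 41.5 CPM, closer to each other than those of the hairpin row. Mir3072, also in Mirg, had a lower mean in dopaminergic nuclei, 0.525 times that in non-dopaminergic nuclei, with overlap.

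**Figure D3:**
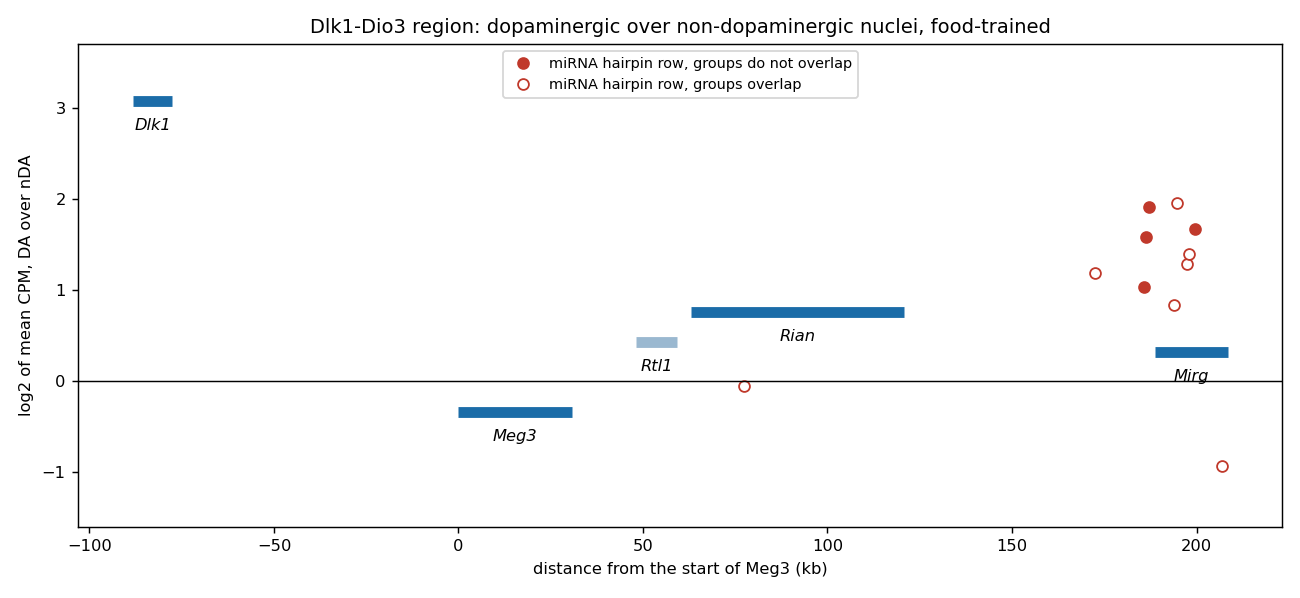
Log2 ratio of mean CPM in food-trained dopaminergic over non-dopaminergic nuclei against distance in kb from the start of Meg3, for 5 genes (bars, drawn over their length) and for the 11 microRNA hairpin rows with a mean of at least 20 counts (circles, filled where the groups do not overlap). Dlk1 stands far above the other genes of the region and Meg3 lies below 0. Of the 11 hairpin rows 9 lie above 0, after a cut on counts that favours rows high in dopaminergic nuclei.

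Ndn and Snrpn belong to the cluster on chromosome 7 whose human counterpart is lost in Prader-Willi syndrome, and both are expressed from the paternal copy. Ndn (chr7:62346569-62350262, plus strand) encodes necdin, a growth suppressor of postmitotic neurons. It was at 327.0, 128.5, 316.8 and 286.5 CPM in food-trained dopaminergic libraries and at 106.9, 73.6, 82.5 and 118.2 CPM in non-dopaminergic ones. The groups did not overlap, but dopaminergic replicate 2 stood far below the other 3 and just above the highest non-dopaminergic library. The log2 fold change was 1.48 (SE 0.31), after Dlk1 the highest among the members.

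Snrpn (chr7:59982495-60140219, minus strand) encodes the splicing protein SmN of neurons and shares transcripts with Snurf, so that counts can be split between them. Snrpn was at 565.8, 592.9, 386.9 and 483.7 CPM in food-trained dopaminergic nuclei and at 292.6, 502.4, 232.7 and 244.4 CPM in non-dopaminergic nuclei. Non-dopaminergic replicate 2 lay inside the dopaminergic range and the other 3 below it. The log2 fold change was 0.68 (SE 0.28), and it was 1.14 when dopaminergic replicate 3 (the lowest total count) and non-dopaminergic replicate 2 (a GC slope apart from the other 3) were left out together, a step chosen after seeing the data. Snurf was at 86.3 ± 49.0 against 51.5 ± 14.7 CPM (SD, n = 4 each) and did not pass (log2 fold change 0.76, SE 0.38, edgeR adjusted p 0.275).

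Of the neighbours in that cluster, Snhg14, Magel2 and Ube3a did not pass the test between the fractions. Snhg14, the long host RNA downstream of Snrpn, was at 78.4 ± 37.5 CPM in dopaminergic nuclei and 44.3 ± 15.5 CPM in the others (edgeR adjusted p 0.243). Magel2, the neighbour of Ndn, was at 16.6 ± 6.31 and 22.7 ± 13.4 CPM (adjusted p 0.729). Ube3a, the ubiquitin ligase expressed from the maternal copy in neurons, was at 458 ± 146 and 470 ± 90.3 CPM (adjusted p 0.974, n = 4 in all of these groups).

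Outside the Dlk1-Dio3 cluster, Peg3, Nap1l5 and Cdkn1c had lower means in dopaminergic than in non-dopaminergic nuclei. Peg3 (chr7:6703892-6730431, minus strand), a paternally expressed zinc finger gene, was at 454.7, 548.0, 592.2 and 676.3 against 714.8, 737.4, 879.3 and 718.6 CPM. All its dopaminergic libraries were below all non-dopaminergic ones, and the log2 fold change was -0.41 (SE 0.19). Usp29, which starts 147 bases away on the other strand, was at 49.2 ± 23.7 against 63.7 ± 10.8 CPM (SD, n = 4 each, edgeR adjusted p 0.58). Counts of Usp29 were 8.64% of those of Peg3 in dopaminergic and 8.43% in non-dopaminergic nuclei.

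Nap1l5 (chr6:58905233-58907076, minus strand) is an intronless gene related to nucleosome assembly proteins that lies inside Herc3 on the opposite strand, so reads of Herc3 cannot be told apart from its own without strand. It was at 256.8, 251.7, 344.5 and 251.3 CPM in dopaminergic libraries and 401.4, 424.6, 275.6 and 348.1 CPM in the others. The groups overlapped in 1 library of each, and the log2 fold change was -0.38 (SE 0.20).

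Grb10 (chr11:11930508-12038683, minus strand) encodes an adaptor that dampens insulin receptor signalling and is expressed from the paternal copy in neurons. It was at 114.2, 87.9, 101.5 and 114.7 CPM against 85.1, 101.6, 99.7 and 68.8 CPM, and the groups overlapped (log2 fold change 0.25, SE 0.19). Ddc, which begins 32.4 kb away and is itself a dopamine neuron marker, passed the test (log2 fold change 2.77, SE 0.39, edgeR adjusted p 0.0067). Counts of Grb10 were 56.5 ± 26.8% of those of Ddc in dopaminergic and 273 ± 40.4% in non-dopaminergic nuclei (SD, n = 4 each).

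Cdkn1c (chr7:143458339-143461050, minus strand), a cell cycle inhibitor expressed from the maternal copy, was near the limit of detection in dopaminergic nuclei. It had 18, 0, 0 and 0 counts in food-trained dopaminergic libraries and 102, 80, 41 and 65 counts in non-dopaminergic libraries. A count of 0 allows up to 3 counts, or 0.0655 to 0.108 CPM in the 3 libraries at 0, an interval for counting error only. The non-dopaminergic mean was 1.53 ± 0.476 CPM (SD, n = 4), and every non-dopaminergic library was above every food-trained dopaminergic one. Cdkn1c passed the filter on low counts only through the group where it was high, and its fitted fold change rests on 1 library with 18 counts, so none is given. Kcnq1ot1, the antisense RNA of the same domain, was at 716 ± 259 and 1049 ± 109 CPM (SD, n = 4 each, edgeR adjusted p 0.262).

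Among the 10 members, 3 were higher (Dlk1, Rian, Ndn) and 2 lower (Peg3, Cdkn1c) in food-trained dopaminergic nuclei without overlap. Across all 19786 genes compared, 6.41% were higher and 19.7% lower without overlap, 26.1% in all, and edgeR called 12.8% at an adjusted p under 0.05. The median log2 fold change was 0.29 over the members and -0.21 over all genes. Since the members were chosen with this contrast known, nothing is read from these counts.

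**Figure D4:**
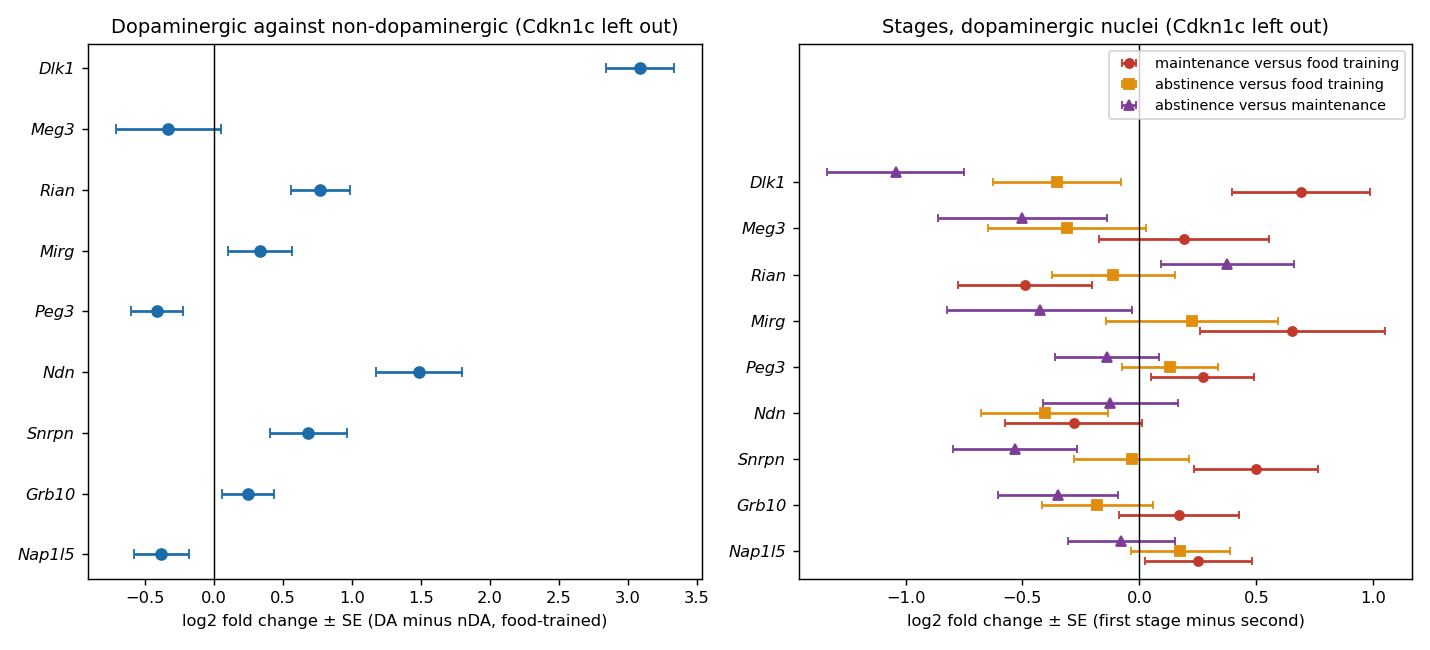
Log2 fold changes with SE from the edgeR fits, for dopaminergic minus non-dopaminergic nuclei of food-trained mice (left) and for the 3 pairs of stages within dopaminergic nuclei (right), with Cdkn1c left out because most of its dopaminergic libraries held no count. Dlk1 stands at 3.09 on the left, and on the right it has the highest value for maintenance against food training (0.69) and the lowest for abstinence against maintenance (-1.04).

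Per kb of the longest annotated transcript, mean levels in food-trained dopaminergic nuclei ranked in the order Meg3 (1108 CPM per kb), Dlk1 (270), Snrpn (244), Nap1l5 (150), Ndn (71.7), Peg3 (65.3), Rian (37.7), Grb10 (20.7), Mirg (13.6) and Cdkn1c (0.0409). Dlk1 and Snrpn, and Ndn and Peg3, lay closer to each other in this order than the spread between their libraries. In non-dopaminergic nuclei Nap1l5 (197 CPM per kb), Snrpn (153) and Peg3 (87.7) came after Meg3 (1404), and Dlk1 (32.1) followed. The lengths are those of processed transcripts, while nuclear RNA also holds introns.

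The members varied between replicates by unequal amounts. Within dopaminergic groups the SD of log2 CPM was lowest for Peg3 (0.20) and Nap1l5 (0.23), and 6.0% and 10.2% of genes of like level had a smaller SD. It was 0.38 for Dlk1, close to the median of 0.44 of the 59 genes of like level, and 0.42 for Meg3. Mirg had the highest SD of the 9 members other than Cdkn1c, 0.56.

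A further question was whether these genes differ between food training, maintenance and abstinence within dopaminergic nuclei. Dlk1 had its highest level at maintenance, with 1683, 2025 and 2401 CPM in 3 libraries. After food training it had 906.7 to 1609 CPM in 4 libraries, and after abstinence 984.7, 939.1, 1373 and 671.4 CPM. All maintenance libraries were above all libraries of the other stages, and the latter overlapped. The means were 1258 ± 334 (SD, n = 4), 2036 ± 359 (SD, n = 3) and 992 ± 289 CPM (SD, n = 4).

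Cell type markers also varied between these libraries. The 8 oligodendrocyte markers summed to 1678 to 2750 CPM after food training, 1064 to 1689 CPM at maintenance and 1139 to 1992 CPM after abstinence, and 5 of the 8 were lower at maintenance than after food training without overlap (1 by edgeR), beside 4.14% and 0.131% of all genes. The 3 GABA neuron markers summed to 160.7 to 220.2, 159.3 to 350.4 and 195.7 to 413.4 CPM, and the 10 dopamine neuron markers to 6522 to 12449, 7925 to 9768 and 5713 to 9032 CPM. The 7 astrocyte markers summed to 746.5 to 991.7, 741.3 to 1001 and 559.1 to 837.4 CPM and the 6 microglia markers to 244.4 to 399.0, 127.9 to 321.2 and 208.4 to 366.0 CPM. Against food training, the single markers without overlap at maintenance were, among the dopamine markers, Pitx3 (0.937 to 3.72 against 14.0 to 61.9 CPM), En1 (71.4 to 81.5 against 82.5 to 215 CPM) and Ret (877.2 to 1048 against 1134 to 2175 CPM), all lower, and, among the others, the lower oligodendrocyte markers Mbp, Mag, Mog, Mobp and Olig1 and the lower astrocyte marker Aldh1l1 (3.26 to 18.3 against 38.1 to 61.7 CPM). The higher ones were Slc1a3 of astrocytes (65.0 to 81.4 against 45.6 to 63.4 CPM), P2ry12 of microglia (55.2 to 110.7 against 36.7 to 51.4 CPM), Gad2 of GABA neurons (69.9 to 195.9 against 45.7 to 67.2 CPM) and Pdgfra of oligodendrocyte precursors (means of 20.3 against 3.83 CPM). After abstinence Ddc, Slc1a3 and Slc1a2 were lower and Pitx3, Olig1 and Slc32a1 higher than at maintenance without overlap, where 4.52% of all genes were lower and 7.68% higher. Of these markers edgeR called Olig1 alone, in both pairs. No marker of these lists was at 0 throughout a stage, and their part in the stage differences was not tested.

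None of the stage differences of Dlk1 passed the test across all genes. The log2 fold change was 0.69 (SE 0.29) for maintenance against food training, with an edgeR adjusted p of 0.403 and an unadjusted p of 0.0347. For Dlk1 it was -1.04 (SE 0.29) for abstinence against maintenance, with an edgeR adjusted p of 0.256 and an unadjusted p of 0.00343, and -0.35 (SE 0.27, edgeR adjusted p 1) for abstinence against food training. DESeq2, which called 3.94% of genes in abstinence against maintenance where edgeR called 0.178%, gave Dlk1 an adjusted p of 0.00369 there. Over the other alternatives the edgeR or limma adjusted p for that contrast ran from 0.12 to 1, and the log2 fold change kept its sign in all 17 alternatives, from -1.24 to -0.90.

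The maintenance libraries differed from the others in their dependence on GC content. The slope of log2 CPM on GC percent was -0.0226 to -0.038 in the 3 maintenance libraries and -0.0166 to 0.0206 in the other dopaminergic libraries. With an offset that removes this slope the values for Dlk1, whose transcript has 53.6% GC, were 0.86 (maintenance against food training) and -1.23 (abstinence against maintenance). Relative to Slc6a3, counts of Dlk1 were 44.1 ± 13.9% after food training, 82.2 ± 21.8% at maintenance (SD, n = 3) and 38.3 ± 8.24% after abstinence (SD, n = 4). Relative to other dopamine markers, which were not tested, counts of Dlk1 were 151 ± 36.2%, 257 ± 88.0% and 185 ± 62.9% of Th and 646 ± 276%, 659 ± 36.4% and 576 ± 251% of Ddc at the same stages, ratios that overlapped between maintenance and the other stages. The libraries of abstinence and maintenance did not overlap in the ratio to Slc6a3, with an exact two-sided permutation p of 0.0571, the smallest that 3 against 4 libraries allow, and a Benjamini-Hochberg adjusted p of 0.214 over 15 such comparisons of ratios. These 15 leave out the ratios to Th and Ddc, so the adjusted p does not cover the choice of marker.

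Of the noncoding RNAs, Meg3 was at 12730, 26473 and 16074 CPM at maintenance and at 13466, 10639, 12053 and 16110 CPM after abstinence. The ranges of all 3 stages overlapped, and the log2 fold changes were 0.19 (SE 0.36), -0.31 (SE 0.34) and -0.50 (SE 0.36) for maintenance against food training, abstinence against food training and abstinence against maintenance. Rian was at 182.5, 308.1 and 162.1 CPM at maintenance and 298.2, 271.5, 217.9 and 345.5 CPM after abstinence, and Mirg at 55.1, 115.2 and 75.0 and at 90.3, 36.4, 33.7 and 82.8 CPM. For maintenance against food training the log2 fold change was -0.49 (SE 0.29) for Rian and 0.65 (SE 0.40) for Mirg, with edgeR adjusted p of 0.557 and 0.582. Replicate 2 of maintenance was the highest library of its stage for Meg3, Rian and Mirg alike, and without it the value of Meg3 for maintenance against food training turned to -0.20.

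The ratio of Rian to Meg3 was lower at maintenance than at the other stages. Counts of Rian were 1.01 to 1.43% of those of Meg3 in the maintenance libraries, mean 1.20 ± 0.22% (SD, n = 3), against 1.59 to 2.47% after food training and 1.81 to 2.55% after abstinence, mean 2.18 ± 0.31% (SD, n = 4). The maintenance libraries did not overlap either of the other stages. The exact two-sided permutation p was 0.0571 for each of these comparisons, the smallest this design allows, with an adjusted p of 0.214 over the 15 comparisons. Counts of Mirg were 30.2 to 46.3% of those of Rian at maintenance and 14.0 to 19.9% after food training, again without overlap and with the same exact p. After abstinence they were 13.4 to 30.3%, which overlapped the maintenance libraries (exact two-sided permutation p 0.114, adjusted p 0.286). These ratios were picked after their values were seen, so their p-values are a description. Rian has a GC content of 35.8% and Meg3 of 49.2%, and the GC offset moved the fold change of Rian at maintenance from -0.49 to -0.93.

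Over the 11 dopaminergic libraries Meg3 and Mirg had a Pearson r of 0.705 (permutation p 0.0137) and a Spearman rho of 0.727 (permutation p 0.0145). With adjustment over the 6 pairs of Dlk1, Meg3, Rian and Mirg these became 0.0822 and 0.0872, so that no pair passed. The permutations ran across stages, so these p-values do not set variation between replicates apart from differences between stages. Without the 2 libraries farthest from the median of Meg3 the r was 0.645 (9 libraries), and without the maintenance libraries it was 0.525 (8 libraries). Dlk1 and Meg3 had an r of 0.416 (adjusted permutation p 0.325), Dlk1 and Rian one of -0.586 (adjusted permutation p 0.177).

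The 6 members outside the Dlk1-Dio3 cluster did not pass in any pair of stages. Snrpn was at 736.5, 499.2 and 924.9 CPM at maintenance, mean 720 ± 213 (SD, n = 3), and at 500 ± 108 CPM after abstinence (SD, n = 4), with log2 fold changes of 0.50 (SE 0.27, edgeR adjusted p 0.495) for maintenance against food training and -0.53 (SE 0.27, edgeR adjusted p 0.533) for abstinence against maintenance. With a term for maintenance libraries and non-dopaminergic replicate 2 these became -0.49 and 0.46, so the direction for Snrpn turned. Ndn was at 219 ± 35.8 CPM at maintenance (SD, n = 3) and 201 ± 12.1 CPM after abstinence (SD, n = 4), below its mean of 265 ± 92.4 CPM after food training (SD, n = 4). The food-trained libraries of Ndn were spread from 128.5 to 327.0 CPM and enclosed the values of both other stages.

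Peg3 was at 687 ± 23.2 CPM at maintenance (SD, n = 3) and 537.4 to 733.4 CPM in the 4 libraries after abstinence, Nap1l5 at 331 ± 64.5 and 314 ± 44.9 CPM, and Grb10 at 118 ± 27.0 and 92.9 ± 21.2 CPM. Their log2 fold changes between stages ran from -0.35 (Grb10, abstinence against maintenance) to 0.27 (Peg3, maintenance against food training). Cdkn1c had 0 counts in all 3 maintenance libraries and 0, 6, 65 and 19 counts after abstinence, where 1 library held most of the counts.

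In all, 0 of 10 members passed edgeR's test in each of the 3 pairs of stages. At an unadjusted edgeR p under 0.05 there were 1 (Dlk1), 0 and 2 (Dlk1 and Cdkn1c) members for maintenance against food training, abstinence against food training and abstinence against maintenance, and DESeq2 called 0, 0 and 1 (Dlk1). The value of Cdkn1c rests on the maintenance group at 0 and carries no weight. Of all 19060 genes tested, edgeR called 0.131%, 0% and 0.178% in these pairs, and 11.6%, 4.3% and 9.92% had an unadjusted p under 0.05. DESeq2 called 4.81%, 0.672% and 3.94% of the 18598 genes to which it gave an adjusted p. Without overlap, 1 member (Dlk1) was higher at maintenance than after food training, as were 4.31% of all genes, and 1 (Dlk1) was lower after abstinence than at maintenance, as were 4.52%. No other member stood without overlap in any pair, where 8.45%, 3.34% and 12.2% of all genes did so in either direction. With 3 or 4 libraries a stage, a p above the threshold does not show that levels were alike.

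A list of 58 other imprinted genes set the members beside the rest of their class. Between food-trained dopaminergic and non-dopaminergic nuclei 51 were tested, and 6 were higher and 4 lower by edgeR, against 3.63% and 9.17% of all genes. Of the 6 higher genes 1, Ddc, is also on the list of dopamine neuron markers, so its call was given by the sort. Of the 4 lower genes 2, Kcnq1 and Peg12, held no count in dopaminergic nuclei and passed the low-count filter through the other fraction alone. When fractions of the same replicate number were paired as blocks, 4 of the 10 passed, namely Zdbf2, Ddc, Blcap and Rasgrf1, where the block left 3.92% of all genes past the threshold. The count also fell to 4 without non-dopaminergic replicate 3, to 5 without non-dopaminergic replicate 1 or 4 and to 6 without dopaminergic or non-dopaminergic replicate 2. The median log2 fold change of the list was -0.18, beside -0.21 for all genes.

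Zdbf2, a paternally expressed gene, was at 73.4, 87.7, 83.6 and 80.6 CPM in dopaminergic against 34.4, 35.8, 30.9 and 35.3 CPM in non-dopaminergic nuclei. The difference (log2 fold change 1.27, SE 0.17, edgeR adjusted p 0.00605) passed in all 18 alternatives, as did Ddc. Igf2r, the receptor that clears insulin-like growth factor 2, was higher by 1.15 (SE 0.29, adjusted p 0.0305), Blcap by 0.80 (SE 0.21, adjusted p 0.0396), Impact by 0.66 (SE 0.17, adjusted p 0.0331) and Adam23 by 0.61 (SE 0.17, adjusted p 0.0449). With the replicate block the edgeR adjusted p was 0.0974 for Igf2r, 0.0655 for Impact and 0.133 for Adam23. Among the lower genes, Igf2, the growth factor itself, was at 6.97 ± 5.22 against 33.1 ± 5.32 CPM (SD, n = 4 each). Its edgeR adjusted p was 0.0181 (log2 fold change -2.24, SE 0.51), and 0.0527 with the block, and it did not pass without non-dopaminergic replicate 3. Of the 8 fits that left out 1 library, Igf2r passed in 2, Impact in 3, Rasgrf1 in 2, and Blcap and Adam23 in 1 each.

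Rasgrf1, a neuronal exchange factor, was lower in dopaminergic nuclei (log2 fold change -1.17, SE 0.31, edgeR adjusted p 0.0402). Kcnq1 and Peg12 held 0 counts in all 4 food-trained dopaminergic libraries. Against a floor of 3 counts per library they were at least 10.3-fold and at least 8.07-fold lower in dopaminergic nuclei, and with the block their edgeR adjusted p was 0.19 and 0.199. The imprinted genes Nnat (266 against 267 CPM), Mest (55.4 against 49.1 CPM), Gnas (171 against 231 CPM) and Peg10 (3.74 against 7.62 CPM) did not pass, with edgeR adjusted p of 0.987, 0.843, 0.293 and 0.54. H19, the partner of Igf2, had 0 counts in 2 of the 4 non-dopaminergic libraries and in all 4 food-trained dopaminergic ones.

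**Figure D5:**
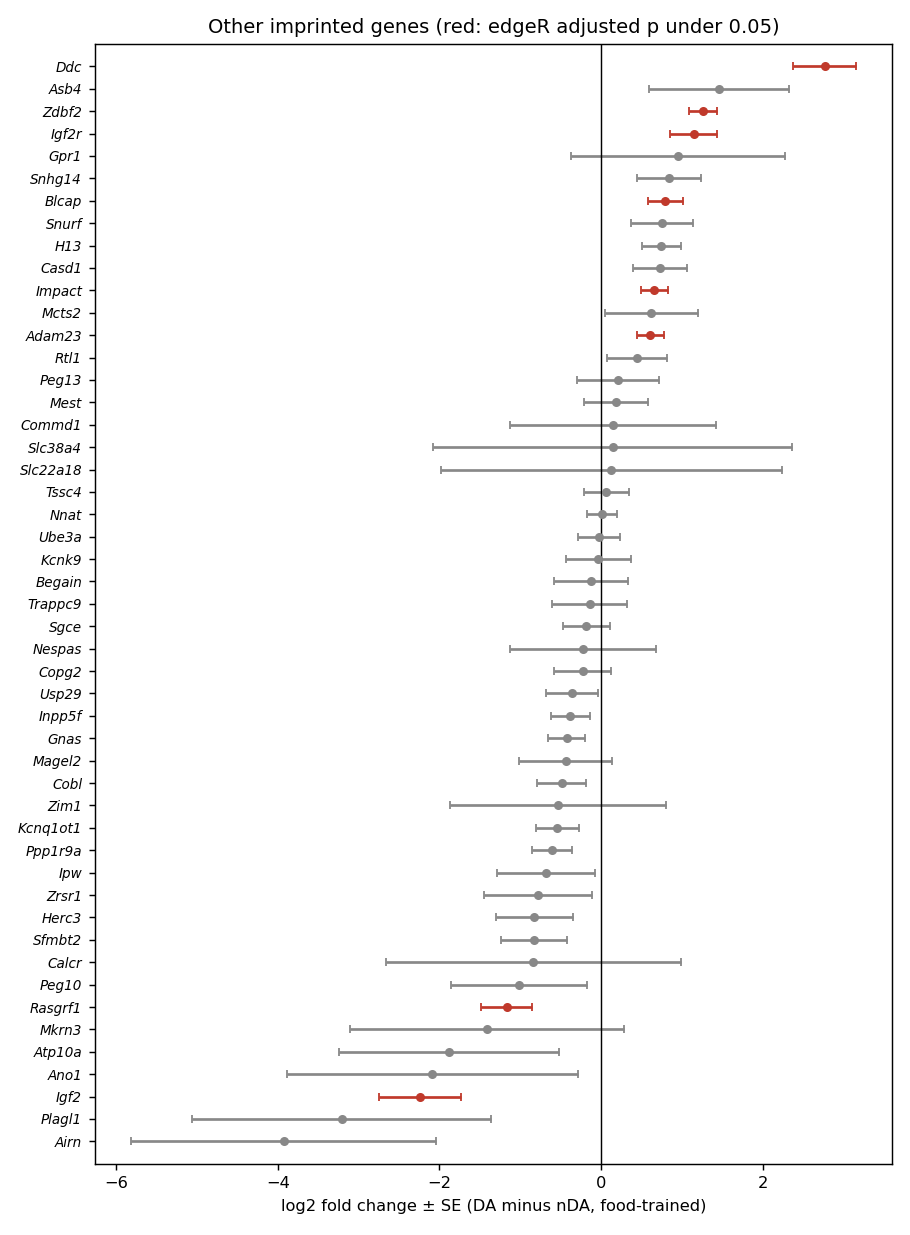
Log2 fold changes with SE for dopaminergic minus non-dopaminergic nuclei of food-trained mice for the other imprinted genes that were tested, leaving out Kcnq1 and Peg12 with no count in dopaminergic nuclei. Genes past an edgeR adjusted p of 0.05 are red. Ddc and Zdbf2 stand highest of those that passed, and Igf2 and Rasgrf1 lowest.

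Between stages 49 of these genes were tested and 0 passed edgeR's test in each pair. At an unadjusted edgeR p under 0.05 there were 7, 1 and 9 genes for maintenance against food training, abstinence against food training and abstinence against maintenance, and DESeq2 called 3, 0 and 3. The shares of all genes were 11.6%, 4.3% and 9.92% for the unadjusted p and 4.81%, 0.672% and 3.94% for DESeq2. The 3 were Mkrn3, Kcnk9 and Cobl in the first pair and Mkrn3, Zdbf2 and Kcnk9 in the last, chosen for naming after their values were seen. Mkrn3 held 0 counts in all 3 maintenance libraries and in 2 of the 4 food-trained ones, so its calls rest on a group at 0.

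A list of 32 genes of the Notch pathway, in which Dlk1 is regarded as a noncanonical ligand that lacks the domain of the classical ones, was set beside it. All 32 were tested between the fractions, and edgeR called 1 higher and 4 lower in dopaminergic nuclei, beside 3.63% and 9.17% of all genes. With the replicate block 2 were higher and 0 lower, beside 2.09% and 1.83% of all genes, the higher ones being Cntn1 and Dner, another proposed Notch ligand, at 646.5 against 326.3 CPM (edgeR adjusted p 0.0613 without and 0.0263 with the block). The higher gene was Cntn1, an axonal adhesion protein and proposed Notch ligand, at 1489 ± 231 against 656 ± 151 CPM (SD, n = 4 each). Its edgeR adjusted p was 0.00872 (log2 fold change 1.19, SE 0.23), and 0.0153 with the block. Of the receptors, Notch2 was lower with an edgeR adjusted p of 0.017 (log2 fold change -2.38, SE 0.53) and Notch3 with one of 0.0396 (log2 fold change -1.44, SE 0.39). With the block these became 0.0803 and 0.0888. Notch2 did not pass without non-dopaminergic replicate 2 or 4, and Notch3 passed in 2 of the 8 fits that left out 1 library. Notch1, at means of 24.1 and 68.2 CPM, was lower without overlap but did not pass (edgeR adjusted p 0.133, DESeq2 adjusted p 0.0456). Notch4 had the higher mean in dopaminergic nuclei, 4.28 against 1.83 CPM, without overlap, and did not pass either (edgeR adjusted p 0.336).

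Of the ligands and modifiers, Dll4 and Mfng held 0 counts in all food-trained dopaminergic libraries, passed the low-count filter through non-dopaminergic nuclei alone and make up 2 of the 4 lower calls. They were at least 28.6-fold and at least 73.7-fold lower than in non-dopaminergic nuclei, with an edgeR adjusted p of 0.161 and 0.114 under the block. Dll1 (25.7 against 21.1 CPM), Jag1 (13.1 against 19.3 CPM), the Dlk1 relative Dlk2 (14.2 against 12.2 CPM) and the target Hes1 (4.47 against 6.62 CPM) did not pass, with edgeR adjusted p of 0.702, 0.603, 0.922 and 0.853. Jag2, at 82.9 against 53.2 CPM, was higher without overlap and did not pass (edgeR adjusted p 0.173). In the stages 30 Notch genes were tested and edgeR called 0 in each pair. There, 3, 0 and 2 genes had an unadjusted edgeR p under 0.05, beside 11.6%, 4.3% and 9.92% of all genes. DESeq2 called 3, 0 and 2, beside 4.81%, 0.672% and 3.94% of all genes.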

How the data were processed

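The authors deposited whole-number counts per gene for 15 samples, and these were used as they stand. Per the submitters' processing notes, Trim Galore 0.6.7, cutadapt 1.18, STAR 2.7.10a, StringTie 2.1.5 and DESeq2 1.38.3 were used with builds mm10 and GRCm38, while their roles, the annotation used for counting and strandedness are not given in the sources used here. A second deposited table repeats the counts of 10 samples and was not used. Per the labels' protocols, libraries came from a low-input kit, and no molecular identifiers are recorded, so intervals cover counting error only. p-values measure the spread between pools of 2 mice.

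Differences were tested with edgeR 4.0.16 under R 4.3.3 (filterByExpr, TMM, quasi-likelihood F-test, two-sided, Benjamini-Hochberg adjusted p under 0.05), in the 8 food-trained libraries for the fractions and in all 11 dopaminergic libraries for the stages. CPM values use TMM factors of all 15 libraries, and log2 CPM a prior count of 2. DESeq2 1.42.0, limma 3.58.1 (voom with quality weights), other scalings and filters, a GC offset, a replicate block and leaving out each library were alternatives. Lengths, GC content and positions came from GENCODE M21, and sequences from RefSeq (GRCm38.p6, 9 of 10 members with a promoter). The analysis was tested on simulated data with log2 changes of 3 or 1.5. Between fractions edgeR recovered 40.4% and 14.3% of these changes. For maintenance against food training it recovered 41.3% and 12.6%, so a gene that did not pass may still differ.

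Members and lists were chosen with earlier results of these data known. By the naming rule, all members are named, and of the other imprinted and Notch genes a fixed set plus those past the threshold with the lowest p. In food-trained mice, dopaminergic and non-dopaminergic libraries of the same replicate number deviated together (r 0.116, 0.127, 0.262 and 0.243 over 8532 genes, each best with its own number), so blocked values are given where the block changes a call. The labels do not state that a number marks 1 pool of mice.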

Additional observations from a re-analysis of the deposited data

Results flagged for a closer look

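In groups of 4 libraries the highest or lowest value was set against the rest of the group with Dixon's test, and 4 of the 30 groups of members held a library that stood apart, where chance gives about 1 in 20. Peg3 was highest in non-dopaminergic replicate 3, at 879.3 CPM against 714.8 to 737.4 CPM in the other 3. Nap1l5 was highest in food-trained dopaminergic replicate 3, at 344.5 CPM against 251.3 to 256.8 CPM. Ndn was lowest in abstinence replicate 4, at 182.9 CPM against 205.3 to 208.0 CPM. Cdkn1c was highest in food-trained dopaminergic replicate 1, at 0.311 CPM (18 counts) against 0 counts in the other 3. With 3 libraries tied at 0 this last measure is met by any count above 0, so it carries no information on spread.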

How the results depend on the processing

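Of 672 recomputed fold changes of members, 661 stayed on their side of the threshold or moved by less than the spread between replicates, 10 moved by more and 1 passed the threshold (Dlk1, abstinence against maintenance, DESeq2). Between stages no member passed in the main fit. A value there that kept its sign and still did not pass was counted among the 661 however far it moved. For Mirg at maintenance against food training the values ran from 0.284 to 0.88. Signs were kept in all alternatives for Dlk1 and, between the fractions, for every member. Between the fractions 2534 genes passed (719 higher, 1815 lower), of which 678 were among the 775 that passed with the replicate block (413 higher, 362 lower). The count was 1643 with at least 10 counts in every library (916 higher, 727 lower), 3883 with DESeq2 (1505 higher, 2378 lower) and 4266 with limma-voom (892 higher, 3374 lower), and the fit of all 15 libraries gave 763 higher and 1205 lower. Other imprinted genes past the threshold numbered 10, 4 in the fit of all 15 libraries, 4 with the block and 4 (without non-dopaminergic replicate 3) to 13 (without dopaminergic replicate 3) without single libraries. Maintenance against food training gave 25 genes, 109 with the strict filter, 894 with DESeq2, 9 with limma-voom, 0 with the block, 0 with a term for maintenance libraries and non-dopaminergic replicate 2, and 5 (without maintenance replicate 1) to 78 (without maintenance replicate 2) without single libraries. Abstinence against food training gave 0 genes by edgeR (819 at an unadjusted p under 0.05) and 125 by DESeq2. Abstinence against maintenance gave 34 genes, 22 with upper quartile scaling, 69 with the strict filter, 732 with DESeq2, 15 in the fit of all 15 libraries, 2 with the block, 1 with the term, and 6 (without maintenance replicate 1 or abstinence replicate 3) to 73 (without maintenance replicate 2) without single libraries. DESeq2 called 3 other imprinted genes in each of these contrasts that include maintenance, and 1 member (Dlk1) in abstinence against maintenance. The cause of these shifts was not tested. Same-numbered libraries of different stages are different mice, with correlations of -0.351 to 0.11, so the block there joins unrelated libraries. With the term for maintenance libraries and non-dopaminergic replicate 2, whose GC slopes are alike, the log2 fold change of Snrpn at maintenance against food training was -0.49 in place of 0.50, and signs of Ndn, Grb10 and Nap1l5, none past the threshold, also turned. The block fit left the fold changes of the members other than Cdkn1c within their spread. Depth limits Cdkn1c most, with at most 102 counts in any library.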
